A study of Heliothis virescens with 2 samples.

Results

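The tetraspanins of the larval gut of *Heliothis virescens* were followed by 2 UniTags among the 35963 different tags of the libraries. Tag_87 was annotated as leukocyte surface antigen CD53-like and Tag_606 as tetraspanin-15-like, in both cases by the best protein match of a contig, from the butterfly *Papilio polytes*. They were selected on the protein name that the study's tables give to a tag, which holds the word tetraspanin or CD53. Those tables list only tags chosen by the fold change and probability of their counts in these same libraries, so the counts of the named tags below are a description and were not tested. Tags that share the first 24 bases of a named tag, and tags 1 substitution apart from it, were added as possible forms of the same transcript tag. With the forms of the same first 24 bases, there were 19 tags.

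Gut RNA was compared between Vip–Sel, the subpopulation that had been selected with the *Bacillus thuringiensis* protein Vip3Aa and is resistant to it, and Vip–Unsel, the unselected and susceptible subpopulation of the same field-derived population. The Vip–Sel insects had been kept for several generations without selection, and larvae of both strains were reared on artificial diet without the toxin. Each strain gave 1 library by HT-SuperSAGE, a method designed to count the 26-base tag at the last CATG of each transcript, from 25 third-instar larvae (5 guts for each of 5 RNA preparations, then pooled). Thus no replicate shows how far guts of 1 strain differ, and every interval below is an exact 95% interval that covers counting error only, since amplified reads are not independent molecules. The study reported that some tags lay far from the end of their contig, and it placed both tetraspanin tags inside theirs. As reasons it proposed poor digestion by NlaIII, which cuts at CATG, or few such sites, with possible effects on the profile.

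The deposited counts added up to 1056080 for Vip–Sel and 268172 for Vip–Unsel. The labels name midgut tissue, where the study speaks of gut tissue. The 5 of 6 midgut marker tags that could be joined to the counts were found in both libraries. They took 17.5% of all Vip–Sel counts and 3.16% of all Vip–Unsel counts. Of these markers, HMG176 (Tag_3 and Tag_55), chymotrypsin (Tag_4) and aminopeptidase N (Tag_403) were higher in Vip–Sel and insect intestinal mucin 3 (Tag_2963) was lower. The marker that could not be joined, a trypsin-like protease (Tag_5) listed by the study as overexpressed, is not in these shares. Every marker was chosen from tags that the study had called different in these libraries, so none could be unchanged. Most of the midgut marker counts of Vip–Sel were of Tag_3 (103728) and Tag_4 (79387). Among other digestive enzymes of the gut, the study lists trypsins and chymotrypsins in both directions. The 6 muscle marker tags took 0.0360% of counts (Vip–Sel) and 0.154% (Vip–Unsel), and the 4 cuticle marker tags 0.102% (Vip–Sel) and 0.259% (Vip–Unsel), though larval cuticle protein 1 (Tag_163) among them was higher in Vip–Sel, with 427 and 8 counts. No marker tag was at 0. Their part in the tetraspanin results was not tested, and in a library of whole gut, fewer cells of a type and less RNA per cell cannot be told apart.

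Tetraspanins are small proteins that cross the membrane at 4 places and carry a large extracellular loop. They bind one another and partner proteins such as adhesion receptors and membrane proteases, and so gather them into patches of the plasma membrane. In mammals CD53 is a tetraspanin of leukocytes, and tetraspanin-15 binds the membrane protease ADAM10 and guides its traffic and substrate choice. For the moth proteins these roles are known only from the match in name.

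The tags that carry the results are printed 5′ to 3′ as deposited, with the last 2 bases and any substitution in capitals, because the forms of Tag_87 differed between the libraries at base 25. Positions are counted from 1 at the C of CATG, and each substitution is given from the named tag.
Tag_87: catgagccccctcctgcccgacacGT
Tag_87 form T26G: catgagccccctcctgcccgacacGG
Tag_87 form T26C: catgagccccctcctgcccgacacGC
Tag_87 form G25C: catgagccccctcctgcccgacacCT
Tag_87 form G25C with T26G: catgagccccctcctgcccgacacCG
Tag_87 form G25A: catgagccccctcctgcccgacacAT
Tag_606: catggaacgcgaggctgaggacgcGT
Tag_606 form T26C: catggaacgcgaggctgaggacgcGC
Tag_606 form T26G: catggaacgcgaggctgaggacgcGG
Tag_606 form G13A with T16C: catggaacgcgaAgcCgaggacgcGT
Tag_87 and Tag_606 differ at 14 of the 22 positions after CATG, so no read of one could be counted as the other. No genome or contig sequence was used here, so the tags were not placed anew on a transcript. The study annotated a tag only where its full length matched a contig perfectly. By that rule the contig of each named tag carries the end of that tag, so the CD53-like contig has the base 25 of Tag_87. Which base 25 the transcript has in either strain was not tested.

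Tag_87, the CD53-like tag, had 866 Vip–Sel counts and 10 Vip–Unsel counts. It made up 0.0820% of the Vip–Sel library (0.0766 to 0.0876) and 0.00373% of the Vip–Unsel library (0.00179 to 0.00686), a fold change (FC) of 22.0 (11.9 to 46.0). It ranked 90th among the tags of Vip–Sel and shared rank 1228 with other tags of 10 counts in Vip–Unsel. Tag_606, the tetraspanin-15-like tag, was rarer, with 81 Vip–Sel counts and 1 Vip–Unsel count. This was 0.00767% of Vip–Sel (0.00609 to 0.00953) and 0.000373% of Vip–Unsel (9.44e-06 to 0.00208), an FC of 20.6 (3.59 to 822). In both tags the interval of the ratio lay above the fold of 2.5 that marks overexpression (OE) in this study, but that of Tag_606 rested on a single Vip–Unsel count.

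Both named tags were thus past the upper fold, as were 1450 of all 15467 tags with at least 2 counts in the libraries together (9.37%), and since the tables had selected them for this, nothing is read from their number. Of the 1091 tags with at least 50 counts together, 400 were past the upper fold (36.7%). The libraries differ in composition, and scaling decides the balance of the calls. With library totals, 22.1% of the calls past either fold were higher in Vip–Sel, and with TMM scaling, which sets tags of extreme ratio or abundance aside, 47.5% were. TMM raised the log2 ratio of every tag by 1.08.

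**Figure D1:**
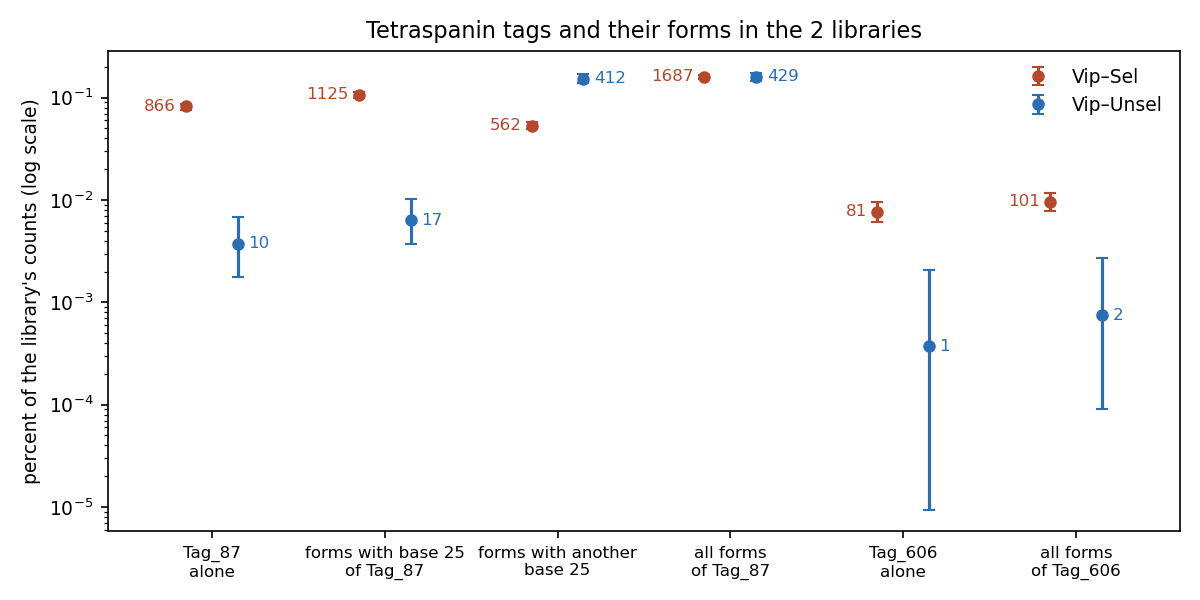
Share of the library's counts (percent, log axis) for each tetraspanin tag, for the forms of Tag_87 with its base 25 or with another base 25, and for all forms with the same first 24 bases, in Vip–Sel (left point of each pair) and Vip–Unsel (right point). Bars are exact 95% intervals and the numbers are counts, and the 1687 and 429 counts of all forms of Tag_87 lie at the same height.

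Only Tag_87 itself carries the CD53-like name, and whether its other forms come from the same transcript was not tested. CD53-like below means no more than the same first 24 bases. All forms of Tag_87 together did not show the difference of the named tag. The 15 tags with its first 24 bases summed to 1687 Vip–Sel counts and 429 Vip–Unsel counts. This was 0.160% of Vip–Sel (0.152 to 0.168) and 0.160% of Vip–Unsel (0.145 to 0.176), a ratio of 0.999 (0.898 to 1.11). With TMM-scaled library sizes the ratio of this sum was 2.11 (1.90 to 2.36), and with the 10 most abundant tags left out of the totals it was 1.25 (1.12 to 1.39). Under each of the 3 scalings the sum stayed below the fold of 2.5 while Tag_87 alone was past it. By its summed forms the CD53-like tag ranked 49th in Vip–Sel and 61st in Vip–Unsel among groups of tags with the same first 24 bases, called stems below.

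The forms of the CD53-like stem fell into opposite sets by base 25. The 4 tags with the base 25 of Tag_87 had 1125 Vip–Sel counts and 17 Vip–Unsel counts, a ratio of 16.8 (10.4 to 29.0). The 4 tags with G25C had 525 Vip–Sel counts and 393 Vip–Unsel counts, a ratio of 0.339 (0.297 to 0.388). In Vip–Sel the forms with the base 25 of Tag_87 were 66.7% of the stem (64.4 to 68.9) and in Vip–Unsel 3.96% (2.33 to 6.27). The forms with G25C were 31.1% of the stem in Vip–Sel (28.9 to 33.4) and 91.6% in Vip–Unsel (88.6 to 94.1). The intervals of the strains did not overlap for either set, and a share within the stem does not change with the scaling of the libraries. Tag_87, listed for its ratio in these same libraries, gave 866 of the 1125 Vip–Sel counts of its set. A difference in these shares was thus partly fixed by the choice of the tag, and nothing is read from the lack of overlap.

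Single forms followed their set. Tag_87 itself was more frequent than the form G25C in Vip–Sel (866 and 347 counts), whereas in Vip–Unsel the form G25C was 21.8 times as frequent as Tag_87 (218 and 10 counts). The form T26G, which keeps base 25, had 139 Vip–Sel counts and 4 Vip–Unsel counts (ratio 8.82, 3.37 to 32.8), and the form T26C had 100 and 2 (12.7, 3.42 to 106). The form T26A had 20 Vip–Sel counts and 1 Vip–Unsel count, and its interval reached below 1 (ratio 5.08, 0.812 to 210). All 4 forms with the base 25 of Tag_87 were past the upper fold.

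On the other side, the form G25C with T26G had 100 Vip–Sel counts and 79 Vip–Unsel counts (ratio 0.321, 0.237 to 0.437). The form G25C with T26A had 36 and 53 (0.172, 0.110 to 0.268), and the form G25C with T26C had 42 and 43 (0.248, 0.158 to 0.389). These 3 were past the lower fold of 0.4, and the form G25C alone lay just above it (0.404, 0.340 to 0.481). With TMM scaling the 4 tags with G25C together had a ratio of 0.718 (0.629 to 0.821), so they were not past the lower fold under that scaling.

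The remaining forms were few. The tags with G25A summed to 29 Vip–Sel counts and 8 Vip–Unsel counts (ratio 0.921, 0.411 to 2.33). Those with G25T summed to 8 and 11 (0.185, 0.0645 to 0.504). Of the 15 forms, 12 were counted in both libraries, 4 were past the upper fold and 7 past the lower fold, against 33.0% of all 15467 tags past the lower fold, which at these depths 1 count in each library already passes.

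**Figure D2:**
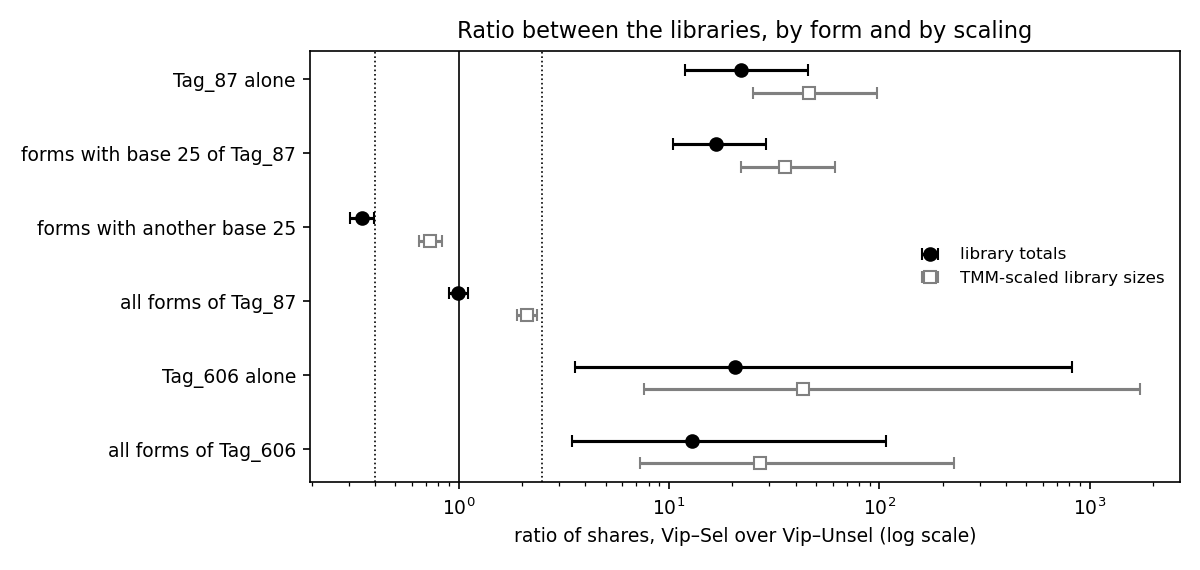
Ratio of shares between Vip–Sel and Vip–Unsel (log axis) for the tetraspanin tags and sums of their forms, with library totals (filled circles) and TMM-scaled library sizes (open squares), exact 95% intervals, a line at 1 and dotted lines at the folds of 2.5 and 0.4. Tag_87 alone stood at 22.0 and all of its forms at 0.999 with library totals, while Tag_606 and all of its forms stood at 20.6 and 12.8.

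Base 26 varied as well, but less between the libraries. The base 26 of Tag_87 was found in 73.6% of the stem's counts in Vip–Sel (71.4 to 75.7) and in 56.2% in Vip–Unsel (51.3 to 60.9). Among forms with G25C it was found in 66.1% of counts in Vip–Sel (61.9 to 70.1) and in 55.5% in Vip–Unsel (50.4 to 60.5). Among forms with the base 25 of Tag_87, it was found in 77.0% of the Vip–Sel counts (74.4 to 79.4).

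The split at base 25 was set against other stems by a comparison chosen after seeing the data. There were 236 stems with at least 50 counts in each library. The difference in base 25 between the libraries, as the percent of a stem's counts that would have to carry another base for both compositions to be equal, had a median of 2.00% and a 95th percentile of 10.1%. For the CD53-like stem it was 62.7%, the second largest of the 236, and only 2 stems were above 50%. Tag_87, which was listed for its ratio in these same libraries, gave 866 of the 1125 Vip–Sel counts with its base 25. A large difference was thus partly fixed by the choice of the tag, and the rank is a description. The most frequent base 25 differed between the libraries in 5 of the 236 stems (2.12%), the CD53-like stem among them. In the median stem the most frequent base 25 made up 97.9% (Vip–Sel) and 96.8% (Vip–Unsel) of the counts. With at least 100 counts in each library, the CD53-like stem had the largest difference of 139 stems.

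At base 26 the CD53-like stem differed by 17.4% between the libraries, the ninth largest, against a median of 6.37%. Its log2 ratio, -0.0021 with library totals, lay 0.58 above the median stem (-0.58), and 169 of the 236 stems (71.6%) had a lower ratio.

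**Figure D3:**
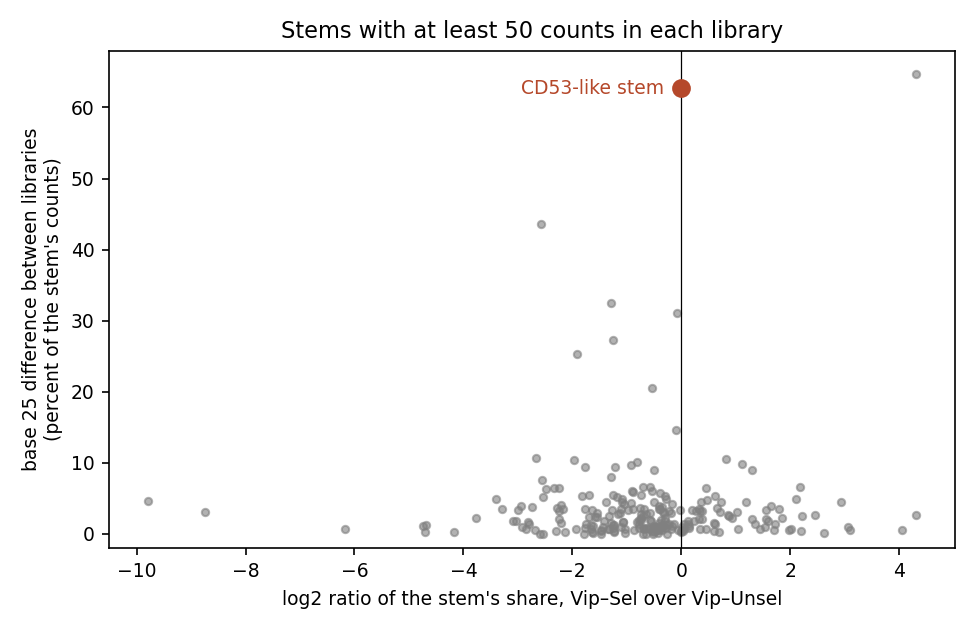
Each point is 1 of 236 stems with at least 50 counts in each library, with the log2 ratio of its summed share (Vip–Sel over Vip–Unsel, library totals) on the horizontal axis and the difference in base 25 between the libraries, as a percent of the stem's counts, on the vertical axis. The CD53-like stem stands at 62.7%, where the median is 2.00%.

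Bases 25 and 26 are the end of the tag, where EcoP15I cuts and where the adapter with the index of the library was ligated. For tags that matched no contig, the study proposed possible mismatches in this ligation as a reason, beside limited depth of the published transcriptome. The strains carried different indexes, so strain, index and library cannot be told apart. Over the whole libraries, G was at base 25 in 55.6% (Vip–Sel) and 38.6% (Vip–Unsel) of counts, and C in 28.9% (Vip–Sel) and 32.1% (Vip–Unsel). Such shares are weighted by count and so depend on which tags are abundant. The 10 most abundant tags of each library made up 53.4% (Vip–Sel) and 41.8% (Vip–Unsel) of its total. Within stems of at least 50 counts in each library, the median difference in base 25 was only 2.00%. The cause of the split at base 25 of the CD53-like stem was not tested.

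Substitutions within the first 24 bases of Tag_87 were rare, at shares within counting error of each other in the libraries. They formed 51 tags, of which 40 were counted 1 time in all, and lay at 19 positions. Together they had 57 Vip–Sel counts and 14 Vip–Unsel counts, which is 3.27% (2.48 to 4.21) and 3.16% (1.74 to 5.25) of the stem with them. The median of the 236 stems was 4.29% for Vip–Sel and 4.36% for Vip–Unsel. The most frequent single tag of them, A23G, had 6 Vip–Sel counts and 0 Vip–Unsel counts, where 3 counts are 0.00112% of the library. Whether these tags are copies of the forms of the stem was not tested, so their base 25 is not a separate observation of the split. The base 25 of Tag_87 was found in 33 of their 57 counts in Vip–Sel (57.9%, 44.1 to 70.9) and in 0 of 14 in Vip–Unsel (up to 23.2%). G25C was found in 24 of 57 counts in Vip–Sel and in 13 of 14 in Vip–Unsel.

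All 4 tags with the first 24 bases of Tag_606 had the same base 25, but the 2 Vip–Unsel counts allow a share of it from 15.8 to 100%, so a split as in Tag_87 was not detectable at this depth. They summed to 101 Vip–Sel counts and 2 Vip–Unsel counts. This was 0.00956% of Vip–Sel (0.00779 to 0.0116) and 0.000746% of Vip–Unsel (9.03e-05 to 0.00269), a ratio of 12.8 (3.46 to 107). With TMM scaling the ratio was 27.2 (7.33 to 227), so the tetraspanin-15-like tag stayed past the upper fold as a sum of forms under either scaling, as were 10.4% of the 10931 stems with at least 2 counts together under library totals. The form T26C had 10 Vip–Sel counts and 0 Vip–Unsel counts, the form T26G 8 and 1, and the form T26A 2 and 0. The named tag was 80.2% of the stem in Vip–Sel (71.1 to 87.5).

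Within the first 24 bases of Tag_606, 5 tags with 1 substitution had 1 count each, all in Vip–Sel. A tag with G13A and T16C had 6 Vip–Sel counts and 0 Vip–Unsel counts, and the same pair of substitutions with T26C had 1 count in Vip–Sel. At 2 counts in Vip–Unsel, the depth of that library sets the width of the interval, and a ratio anywhere from 3.46 to 107 is within counting error.

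As single tags, Tag_87 and Tag_606 had FC of 22.0 (11.9 to 46.0) and 20.6 (3.59 to 822), within counting error of each other, and so were the sums over forms with the base 25 of the named tag, 16.8 (10.4 to 29.0) and 12.8 (3.46 to 107). With the forms of every base 25 summed, the intervals (0.898 to 1.11 for Tag_87 and 3.46 to 107 for Tag_606) did not overlap. Whether the tetraspanin tags differ in ratio thus rests on counting the forms with G25C, 525 Vip–Sel and 393 Vip–Unsel counts, to the transcript of Tag_87. Over both tetraspanins the named tags had 947 Vip–Sel counts and 11 Vip–Unsel counts (ratio 21.9, 12.2 to 43.9), and all their forms had 1788 and 431 (1.05, 0.948 to 1.17).

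Features that the choice did not use were compared with those of other tags. Tag_87 has 18 G or C among 26 bases and Tag_606 has 17, where the median of the 975 tags counted in both libraries with at least 50 counts together was 17. In this set the median log2 FC was -0.19 for the 152 tags with 18 G or C and 0.02 for the 156 tags with 17. Both named tags end in the same 2 bases, and the 66 tags of this set with that end had a median log2 FC of 1.54, against 0.14 for all 975. Forms were not merged for these medians. Near copies of an abundant tag such as Tag_3 of HMG176, which has the same end, thus each counted as a tag, and nothing is read from the end itself. Among all 5237 tags counted in both libraries, the 294 tags with that end had a median log2 FC of -0.98, against -1.08. Tag_87 holds 2 CG steps and Tag_606 holds 4, and 69.4% of the 5237 tags hold at least 2 and 25.3% at least 4.

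How often a named OE tag loses its difference when its forms are summed was counted over the 104 OE tags with a protein name that could be joined to the counts, all of which had been selected on the ratio of the single tag. Summed over forms, 86 of them (82.7%) stayed past the upper fold, Tag_606 among them, and 18 did not, Tag_87 among them. The ratio of the tag was 1.10 times that of all its forms in the median OE tag, 1.60 times in Tag_606 and 22.0 times in Tag_87. Only Tag_550, of cytoplasmic dynein 1 intermediate chain, a part of a motor that moves along microtubules, stood above Tag_87 in this measure (22.6 times). It had 95 Vip–Sel counts and 1 Vip–Unsel count, and all of its forms had 185 and 44 (ratio 1.07, 0.765 to 1.52).

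**Figure D4:**
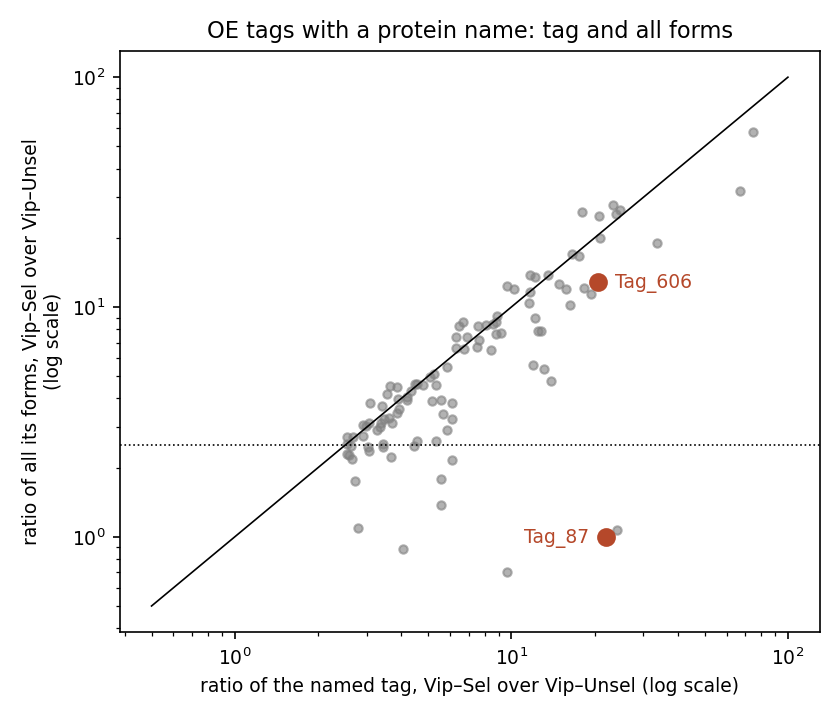
Each point is 1 of 104 OE tags with a protein name, with the ratio of the tag alone (horizontal) and of all tags with its first 24 bases (vertical), Vip–Sel over Vip–Unsel, on log axes, a line of equal values and a dotted line at 2.5. Tag_606 lies near the line at 20.6 and 12.8, and Tag_87 far below it at 22.0 and 0.999.

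The 3 named tags nearest to each tetraspanin in FC did not have the low sum of forms of Tag_87. Tag_550, only a little further from Tag_87 in FC (24.1), did have it, with a ratio of 1.07 for all its forms. Tag_335, of virilizer, a protein of the complex that methylates adenosine in mRNA, had 183 Vip–Sel counts and 2 Vip–Unsel counts (FC 23.2, 6.34 to 193), and all its forms had a ratio of 27.8. Tag_125, of a P3 protein-like transcript, had 570 and 7 counts (FC 20.7, 9.97 to 51.7), and all its forms a ratio of 24.9. Tag_18, matched to a fungal hypothetical protein, had 8622 and 105 counts (FC 20.9, 17.2 to 25.5), and all its forms a ratio of 19.9. Tag_125 and Tag_18 were also the nearest to Tag_606, followed by Tag_393, a ribosomal protein tag. Each of these 3 nearest tags of either tetraspanin kept an FC above 2.5 when its forms were summed.

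Tetraspanins act beside other proteins of the cell surface, of membrane traffic and of the cytoskeleton, and tags of these groups were listed from the tables with their calls known. Every tag of the lists is past a fold because the tables hold no others, so the counts are a description. Of the 390 tags with a protein name in the tables that could be joined, 104 (26.7%) were past the upper fold and 286 (73.3%) past the lower fold, with a median log2 FC of -2.30. Of 11 tags of cell surface and multi-pass membrane proteins, 4 were past the upper fold and 7 past the lower fold, with a median log2 FC of -2.39. Summed over forms, 3 were past the upper fold and 7 past the lower fold. Transporters, among them solute carriers that the study lists as underexpressed, were left out of this list. Plexin A3 (Tag_49), a semaphorin receptor, had 2040 Vip–Sel counts and 123 Vip–Unsel counts (FC 4.21), and all its forms had a ratio of 4.06. Presenilin (Tag_326), the protease of the gamma-secretase complex, which cuts proteins within the membrane, had 189 and 2 counts, and all its forms had a ratio of 25.3. Aminopeptidase N (Tag_403), a digestive enzyme of the midgut brush border, had 149 and 6 counts (FC 6.31), and guanylate cyclase 32E-like (Tag_641), a receptor-type cyclase, 75 and 57 (FC 0.334).

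Of 12 membrane traffic tags that could be joined, of 13 listed, 3 were past the upper fold and 9 past the lower fold, alone and summed over forms, with a median log2 FC of -2.54. Phosphatidylinositol transfer protein alpha (Tag_442) had 128 Vip–Sel counts and 2 Vip–Unsel counts (FC 16.3). The emp24 domain protein 2 (Tag_574), a cargo receptor of early secretory vesicles, had 88 and 5 counts (FC 4.47), and sec13 (Tag_649), a coat protein of vesicles that leave the endoplasmic reticulum, had 72 and 3 (FC 6.09). Signal transducing adapter molecule 2 (Tag_667), which sorts ubiquitin-tagged cargo in endosomes, had 68 and 53 counts (FC 0.326).

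Of 17 cytoskeleton tags, 4 were past the upper fold and 13 past the lower fold, with a median log2 FC of -2.82, and summed over forms the numbers were 2 and 13. This list includes a ubiquitin ligase, MYLIP (Tag_2860), and a serine/arginine repetitive matrix protein (Tag_5194), both past the lower fold. It leaves out the dynein tag Tag_550, which was past the upper fold. In each of the 3 lists most tags were lower in Vip–Sel, as were most named tags of the tables. Their most abundant members were nesprin-1 (Tag_64), which ties the nucleus to actin, with 1386 Vip–Sel counts and 2481 Vip–Unsel counts (FC 0.142), and Tag_159, annotated as a substrate 8-like protein of the epidermal growth factor receptor kinase, an actin regulator, with 442 and 2801 (FC 0.0401). A tubulin alpha chain (Tag_52) had 1996 and 140 counts (FC 3.62), and non-muscle myosin heavy chain (Tag_101) 755 and 72 (FC 2.66), with a ratio of 2.17 when its forms were summed.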

How the data were processed

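The deposited values are raw counts per tag: the authors assigned HT-SuperSAGE reads to a strain by index, discarded reads of poor quality or without the anchoring site, and tallied each distinct tag of 26 bp, with no alignment. Protein names came from the study's tables, whose entries were joined to deposited tags by counts and sequence. Of 1887 entries read, 1846 could be joined, at up to 8 differences in the text of the sequence. The members and lists were chosen with earlier results of these data known, and the tags named follow a written rule (both tetraspanins, their forms with at least 5 counts, the 3 nearest named tags in FC with at least 50 counts, and up to 4 abundant tags of each list), with Tag_550 added after its values were seen. FC is the ratio of counts per library total, where 1 stands in for a 0 count, and the folds were 2.5 and 0.4. Intervals of shares and ratios are exact binomial (95%). With 1 library per strain no test was run. Alternatives were TMM (edgeR 4.0.16, R 4.3.3), other totals, sums over forms, centring on G and C content and 0.5 added to both counts. Functions were tested on simulated data (Python 3.11.15, numpy 2.4.6, scipy 1.17.1, matplotlib 3.10.9).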

Additional observations from a re-analysis of the deposited data

How the results depend on the processing

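The log2 FC of Tag_87 was 4.46. It was -0.0021 with all tags of the same first 24 bases summed, 0.64 with all tags 1 substitution apart, 3.31 with only those of at most 10% of its count, and 5.54 with TMM. Sums chosen after seeing the data gave -0.0093 (same first 20 bases) and -0.00047 (up to 3 substitutions apart). For both named tags summed, 4.45, the values were 0.075, 0.73, 3.38, 5.53, 0.067 and 0.084 in that order, and 5.46 centred on G and C content. The summed forms of Tag_87 had a log2 ratio of 1.08 with TMM and 0.32 without the 10 most abundant tags in the totals. For Tag_606 each alternative that was run lay within the counting interval of its main value (1.84 to 9.68 on the log2 scale). Tags past the upper fold numbered 1450, and 572 among tags in both libraries, 400 with at least 50 counts together, 798 at a fold of 4, and 3319 with TMM. Tags past the lower fold numbered 5106, and 2507 and 236 in the first and second of these sets. No paired analysis was possible because each strain has 1 library. The depth of Vip–Unsel, where Tag_606 has 1 count, limits its ratio, and no library could be left out.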

Other observations

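Beside the CD53-like stem, 4 stems with at least 50 counts in each library had another most frequent base 25 in Vip–Sel than in Vip–Unsel. That of Tag_32, which has no protein name in the tables, had the largest difference of all, 64.8% of its counts, and summed to 5338 Vip–Sel and 68 Vip–Unsel counts (ratio 19.9). That of Tag_1705, a neutral lipase, which splits fats in the gut, differed by 43.6% and summed to 309 and 466 (ratio 0.168). That of Tag_1983, without a protein name, differed by 31.1% and summed to 230 and 62 (ratio 0.942). That of Tag_609, chondroitin sulfate synthase 2, an enzyme of proteoglycan chains, differed by 27.2% and summed to 223 and 135 (ratio 0.419).

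Besides Tag_87, 5 of the 104 OE tags with a protein name had a ratio under 1.5 when their forms were summed. Forms of a stem differ only at bases 25 and 26, so some difference between the libraries there was fixed by this choice. Tag_550, the dynein tag named above, differed by 51.8% at base 25 and by 9.42% at base 26, on 44 Vip–Unsel counts. Tag_77, of serine protease SP1, a digestive enzyme, differed by 67.0% at base 26 and by 1.09% at base 25, and its forms had a ratio of 0.888 (0.799 to 0.989). Tag_1248, of a ubiquitin-conjugating enzyme, differed by 68.9% at base 26 and by 0% at base 25, on 5 Vip–Unsel counts. Tag_888, a ribosomal protein tag, differed by 50.6% at base 26 and 10.1% at base 25, and its forms had a ratio of 0.703 (0.443 to 1.15). The study also measured the genes of Tag_888 and of Tag_1705, the neutral lipase named above, by quantitative PCR on newly dissected guts. It reported Tag_888 as overexpressed there too, and Tag_1705 as underexpressed. Neither tetraspanin tag was among those it measured in this way. Tag_577, of splicing factor 3A subunit 2, a part of the spliceosome, differed by 40.9% at base 26 and 11.4% at base 25, and its forms had a ratio of 1.10 (0.705 to 1.77). These tags were chosen after their values were seen, and no cause was tested.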
